A study of Homo sapiens with 6 samples.

Results

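Open chromatin was examined at 9 genes that mark or regulate trophoblast and amnion, the extraembryonic tissues that human pluripotent cells can form: GATA2, GATA3, CDX2, TFAP2A, TFAP2C, HAND1, ISL1, KRT7 and TP63. A region was taken as a member when its midpoint lay in a fixed hg19 window around 1 of these genes, so that position alone, and no measured value, decided membership. The windows held 56 of the 118556 regions in the deposited table. TP63 had 17 regions, TFAP2A 9, GATA3 7, CDX2 6, ISL1 5, KRT7 5, HAND1 4, GATA2 2 and TFAP2C 1. Region numbers below count the regions of a locus in order along the chromosome.

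GATA2, GATA3, TFAP2A and TFAP2C are DNA-binding regulators that act when pluripotent cells turn towards trophectoderm or surface and amniotic ectoderm. CDX2 is the caudal-type homeobox factor of trophectoderm and, later, of the posterior embryo, HAND1 is a basic helix-loop-helix factor of trophoblast and extraembryonic mesoderm, and ISL1 is a LIM-homeobox factor of amnion and cardiac progenitors. KRT7 encodes a keratin of simple epithelia, and TP63 encodes a p53 family factor of cytotrophoblast and stratified epithelia that is transcribed from alternative promoters. In pluripotent cells many such developmental genes are silent while their CpG-rich regulatory DNA is accessible, and the assay reads accessibility, not transcription.

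The libraries were FAST-ATAC libraries, in which the Tn5 transposase inserts adapters into accessible DNA, of WA09, a single human embryonic stem cell line. Cells were sorted by surface antigens into a GCTM-2highCD9highEPCAMhigh population (the high population) and a GCTM-2midCD9mid population (the mid population, titled low in the sample names), with 3 biological replicates of each and no further treatment named for either. The mid gate as labelled names no EPCAM level. Libraries come from sorted cells in bulk, so fewer cells with an open site and less opening per cell cannot be told apart.

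Total reads in regions lay between 15486251 and 26225539 in the high libraries and between 23091028 and 29025274 in the mid libraries. Wide regions moved with the population: those of at least 2150 bp, the top width decile, held 38.2% to 39.1% of the reads of each high library and 41.7% to 44.6% of each mid library. Values are CPM, read counts scaled to library size after TMM normalisation, and differences are log2 fold changes of high over mid, so that a negative value means more accessible in the mid population. The identity of the sorted cells was not checked at marker genes, because no hg19 annotation was used.

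Promoters of 4 genes are shown, to set the sequence beside the accessibility: those of CDX2, TFAP2A and HAND1, whose windows hold called regions, and that of TP63, whose regions lay on the other side. GATA3, with 6 starts in the RefSeq table, and GATA2 are left out for length, and ISL1, with 1 start, is not printed either. Each is the 250 bases before a RefSeq transcription start, 5′ to 3′ in gene orientation, with CpG dinucleotides in capitals. Their positions in GRCh38.p14 are chr13:27969316-27969565 (minus strand) for CDX2, chr6:10419660-10419909 (minus strand) for the outer of the TFAP2A starts, chr5:154478228-154478477 (minus strand) for HAND1 and chr3:189631139-189631388 (plus strand) for TP63. The counts are in hg19, so which open region covers which promoter was not determined.
CDX2: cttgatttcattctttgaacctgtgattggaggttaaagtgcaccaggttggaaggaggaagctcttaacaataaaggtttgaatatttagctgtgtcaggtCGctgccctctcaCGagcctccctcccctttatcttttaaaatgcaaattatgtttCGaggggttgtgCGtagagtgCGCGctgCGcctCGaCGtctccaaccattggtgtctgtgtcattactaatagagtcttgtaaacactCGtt
TFAP2A: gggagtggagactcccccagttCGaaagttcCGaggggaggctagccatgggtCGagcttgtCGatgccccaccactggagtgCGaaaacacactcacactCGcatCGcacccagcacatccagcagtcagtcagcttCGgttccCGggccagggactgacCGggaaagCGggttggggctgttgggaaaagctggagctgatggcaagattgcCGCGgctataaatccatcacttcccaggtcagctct
HAND1: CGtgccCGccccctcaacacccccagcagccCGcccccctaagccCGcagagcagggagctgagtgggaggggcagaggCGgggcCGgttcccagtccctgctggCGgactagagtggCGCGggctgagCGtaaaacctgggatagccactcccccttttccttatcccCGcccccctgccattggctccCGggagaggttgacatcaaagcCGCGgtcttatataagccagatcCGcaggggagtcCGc
TP63: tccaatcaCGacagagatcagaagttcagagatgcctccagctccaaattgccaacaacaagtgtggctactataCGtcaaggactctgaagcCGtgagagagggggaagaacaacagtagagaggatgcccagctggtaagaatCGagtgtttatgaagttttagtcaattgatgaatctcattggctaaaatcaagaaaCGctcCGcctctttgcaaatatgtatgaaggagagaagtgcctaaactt
CpG dinucleotides numbered 10 in the CDX2 promoter, 13 in TFAP2A, 16 in HAND1 and 6 in TP63, against a median of 11 over the 35116 promoters of the same table. Promoters not printed had 27 at ISL1 and 24 and 18 at GATA2, whose windows hold no called region. GATA3 starts had 4 to 30, and start 2 of TFAP2A had 15. CpG counts of the printed promoters therefore do not stand for the whole list. GC content was 45.2% for CDX2, 59.6% for TFAP2A, 67.2% for HAND1 and 44.0% for TP63, with a median of 58.0% over all promoters. It was 71.2% before start 2 of TFAP2A and 65.2% for ISL1. The RefSeq table gave 1 start for TP63, so its alternative promoters are not covered by these values. By GC content the CDX2 promoter lay nearest to that of TP63, although their windows differed in the opposite direction. By CpG count, among the promoters printed, it lay nearest to that of TFAP2A. The AP-2 motif GCCNNNGGC, which is its own reverse complement in its fixed letters, occurred once in the HAND1 promoter and not in the other sequences printed. It also occurred before starts 1, 4 and 5 of GATA3 and starts 1 and 2 of GATA2, and 19.8% of all promoters hold it. Of the promoters printed, the letters GATA on either strand occurred once in CDX2 and at 2 places in HAND1 (45.6% of all promoters). TATAAA on either strand occurred once in the TFAP2A promoter printed (10.7% of all promoters). Of those not printed, GATA occurred at 2 places in ISL1 and once before starts 2 and 6 of GATA3, and TATAAA once before start 2 of GATA3. RefSeq promoters were found for 7 of the 9 genes. TFAP2C and KRT7 are given by name only.

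Mean summed accessibility was higher in the mid population at 8 of the 9 loci and higher in the high population at TP63. Over all 56 regions the edgeR quasi-likelihood test, with replicate number as a block, called 13 regions more accessible in the mid population at an adjusted p under 0.01 and 0 more accessible in the high population. Over all regions of the table, 3.77% were called towards mid and 2.32% towards high. That balance turned under some other scalings: 3179 against 4971 calls with total counts only, 3104 against 3733 with a loess offset on mean log2 CPM and 2827 against 3285 with a loess offset on region width. It kept its direction with RLE size factors (4861 against 2465) and upper quartile scaling (5676 against 2366). The 13 regions lay at CDX2 (4 of 6), TFAP2A (4 of 9), GATA3 (3 of 7), TFAP2C (1 of 1) and HAND1 (1 of 4), and none was called at GATA2, ISL1, KRT7 or TP63. The log2 fold change was below 0 in 39 of the 56 regions and in 36 of the 39 outside TP63, where 46.5% of all regions were below 0. Its median was -0.215 over the 56 regions and 0.033 over all regions.

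Every mid sample lay above every high sample in 19 of the 56 regions, and every high sample above every mid sample in 4, all of the latter at TP63. Over the whole table these shares were 13% and 12.9%. At an unadjusted p under 0.05, 20 member regions were higher in mid and 4 higher in high, against 13.6% and 14.2% of all regions. DESeq2 with the block called 12 of the 13 and no region towards high, and the likelihood ratio test gave 13 and 0. Over all regions DESeq2 made 3776 calls towards mid and 990 towards high, and the likelihood ratio test 5016 and 3527. The calls rested on replicate pair 2: without it 1 of the 13 was called, and with no replicate block also 1. Leaving out either library of a pair takes the whole pair out of a blocked contrast, so these fits are not separate checks. Over all regions, 0.369% were called towards mid without pair 2 and 1.11% with no replicate block. The median log2 fold change without pair 2 was -0.203.

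**Figure D1:**
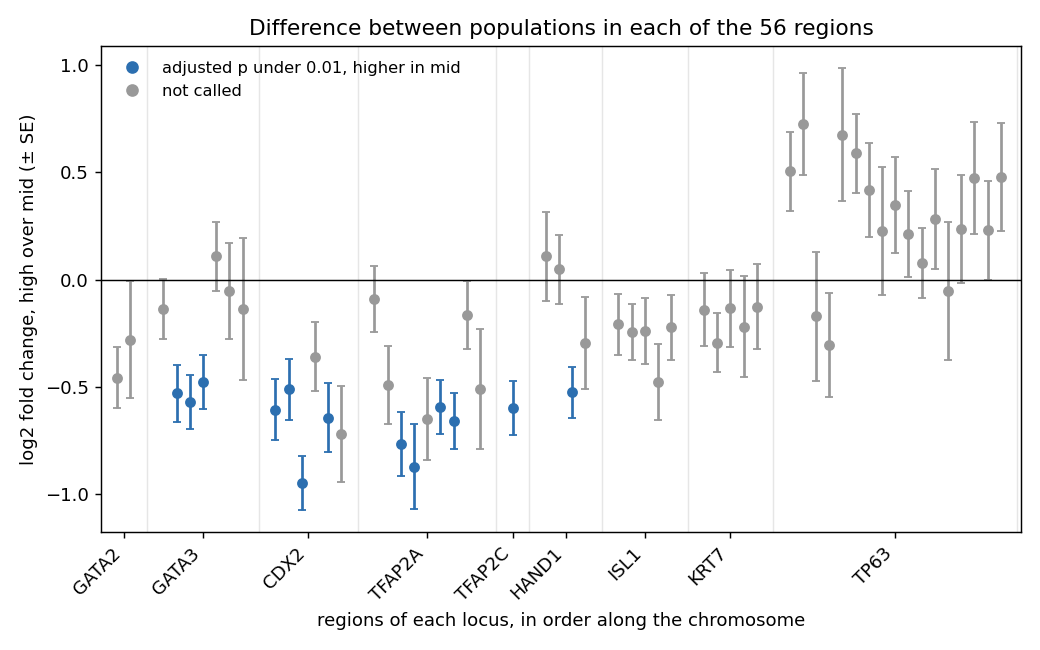
Log2 fold change of high over mid (vertical axis, bars ± SE of the edgeR fit) for each of the 56 regions, grouped by locus and ordered along the chromosome. The 13 called regions, in blue, all lie below 0, between -0.95 and -0.48, and 14 of the 17 TP63 regions lie above 0.

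CDX2 showed the largest shift of the 9 loci in summed CPM. By the median of its regions it stood at -0.63 beside -0.60 for TFAP2A, and the order turned with the loess offset on region width (-0.48 and -0.53) and without pair 1 (-0.690 and -0.696). Summed over its 6 regions, accessibility was 87.1, 79.8 and 94.8 CPM in high replicates 1, 2 and 3 and 142.2, 145.8 and 134.8 CPM in mid replicates 1, 2 and 3. The groups did not overlap, and the mid mean was 1.62 times the high mean (87.2 ± 7.46 against 140.9 ± 5.59 CPM, SD, n = 3). All 6 regions were lower in the high population, with log2 fold changes from -0.95 to -0.36.

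The smallest p and the lowest fold change of the members belonged to CDX2 region 3, a stretch of 4540 bp at chr13:28539589-28544128. It had 30.0, 26.4 and 31.0 CPM in the high replicates and 57.6, 58.9 and 52.3 CPM in the mid replicates. The lowest mid sample lay far above the highest high sample, and each of the 3 pairs differed in the same direction, by -0.94, -1.16 and -0.76 on the log2 scale. The log2 fold change was -0.95 (SE 0.13, adjusted p = 4.15e-07, edgeR), the rank of its p-value was 135 among all regions, and 0.759% of regions in the same width decile had a lower fold change. It was the region called in every alternative tried, with adjusted p between 3.59e-13 and 0.00909. Its fold change was not the lowest with the loess offset on region width, where it was -0.61 and TFAP2A region 4 was -0.94, with that on mean log2 CPM (-0.73 and -0.92) or without pair 3 (-1.05 and -1.17).

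CDX2 regions 1, 2 and 5 were called as well. Region 1 (chr13:28527057-28529197) had 16.9 ± 3.91 CPM in high and 25.4 ± 0.950 in mid (SD, n = 3), a log2 fold change of -0.61 (SE 0.14, adjusted p = 0.00251, edgeR). High replicate 3, at 21.3 CPM, stood nearest to the mid values of 24.4 to 26.2, and the high replicates 1 and 2 were at 15.1 and 14.2. Region 2 (chr13:28534227-28537477) had a log2 fold change of -0.51 (SE 0.14) and lay just inside the threshold (adjusted p = 0.00964), and DESeq2 did not call it. Region 5 (chr13:28550864-28553314) went from 15.8 ± 1.83 CPM in mid to 10.1 ± 1.59 in high (SD, n = 3; log2 fold change -0.64, SE 0.16, adjusted p = 0.00465, edgeR). Regions 4 and 6 were not called, at -0.36 (adjusted p = 0.131) and -0.72 (adjusted p = 0.0234, edgeR). Along GRCh38 the neighbouring protein-coding genes are PDX1 and URAD, so a region of this window may belong to a neighbour, and regions were not assigned to genes.

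The AP-2 loci came next. TFAP2A, whose 9 regions summed to 107.7, 110.6 and 104.2 CPM in the high replicates and 149.5, 175.8 and 145.1 CPM in the mid replicates, was 1.46 times more accessible in mid. Its high samples lay close together, while mid replicate 2 stood above the other mid samples. All 9 regions had a log2 fold change below 0, from -0.87 to -0.09.

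TFAP2A region 6 (chr6:10403678-10405766) was the most accessible of the locus, at 30.4 ± 3.24 CPM in high and 46.0 ± 3.85 in mid (SD, n = 3; log2 fold change -0.60, SE 0.13, adjusted p = 0.000708, edgeR). Region 3 (chr6:10389692-10392532), with the smallest p of the locus, had 15.6, 12.3 and 10.2 CPM in high and 21.1, 24.3 and 18.9 CPM in mid. Its log2 fold change was -0.77 (SE 0.15, adjusted p = 0.000268, edgeR). Region 7 (chr6:10416253-10418475) had 22.5 ± 2.45 CPM in high and 35.8 ± 5.28 in mid (SD, n = 3; log2 fold change -0.66, SE 0.13, adjusted p = 0.000333, edgeR). Region 4 (chr6:10395854-10396871) was the narrowest called member, at 1018 bp, and it held few reads, 3.48 to 4.78 CPM in high and 6.06 to 9.13 CPM in mid. It fell furthest of the locus, with a log2 fold change of -0.87 (SE 0.20, adjusted p = 0.00161, edgeR), and 0.363% of regions of its width decile lay lower.

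The difference was uneven along the TFAP2A window. Regions 3 to 7 lay between -0.87 and -0.60, while regions 1 and 8 were at -0.09 and -0.17, with overlapping groups. Regions 2, 5 and 9 were not called, at -0.49, -0.65 and -0.51 (adjusted p = 0.0624, 0.0156 and 0.225, edgeR). The genes TFAP2A-AS1 and TFAP2A-AS2 overlap TFAP2A in RefSeq, and accessibility cannot be assigned to a strand.

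TFAP2C, encoding the AP-2 factor that also acts in germ cells and naive pluripotent cells, had 1 region in its window, 4050 bp at chr20:55203156-55207205. It had 31.4, 33.3 and 35.2 CPM in the high replicates and 55.9, 51.5 and 44.6 CPM in the mid replicates, without overlap. The log2 fold change was -0.60 (SE 0.13, adjusted p = 0.000736, edgeR). The pairs differed by -0.83, -0.63 and -0.34, so pair 3 moved least. With the loess offset on region width the log2 fold change was -0.29 (adjusted p = 0.0712, edgeR) and the call was lost. By RNA-seq, the paper lists TFAP2C among genes expressed in the high population. Lower accessibility there is thus not to be read as a silent gene.

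GATA3, the zinc finger factor of trophectoderm and amnion, had a called block of 3 neighbouring regions. Region 3 (chr10:8091063-8094597) had 35.9, 34.5 and 31.6 CPM in high and 48.1, 56.6 and 47.2 CPM in mid, a log2 fold change of -0.57 (SE 0.12, adjusted p = 0.00103, edgeR). Region 4 (chr10:8094920-8098473), the next along the chromosome, had 39.3, 30.6 and 27.2 CPM in high and 47.8, 46.9 and 39.6 CPM in mid. There the highest high sample nearly met the lowest mid sample, and the log2 fold change was -0.48 (SE 0.13, adjusted p = 0.00719, edgeR). Region 2 (chr10:8084806-8088663) had 21.6 ± 1.98 CPM in high and 31.3 ± 3.62 in mid (SD, n = 3; log2 fold change -0.53, SE 0.13, adjusted p = 0.00479, edgeR). With the loess offset on region width, regions 2, 3 and 4 were at -0.24, -0.31 and -0.21, and none was called.

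The remaining GATA3 regions were not called. Region 1, 3941 bp wide, was at -0.14, and regions 5, 6 and 7 were at 0.11, -0.05 and -0.14, each with overlapping groups and an adjusted p of at least 0.545 (edgeR). They varied between pairs, region 7 by 0.60, -0.14 and -0.78, and without pair 1 the median of the 7 regions was -0.50 in place of -0.14. The locus sum was 123.3 ± 12.7 CPM in high and 163.5 ± 15.8 CPM in mid (SD, n = 3), 1.33 times higher in mid. The block of regions 2 to 4 stands out in the map of the locus, which plots accessibility per kilobase.

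**Figure D2:**
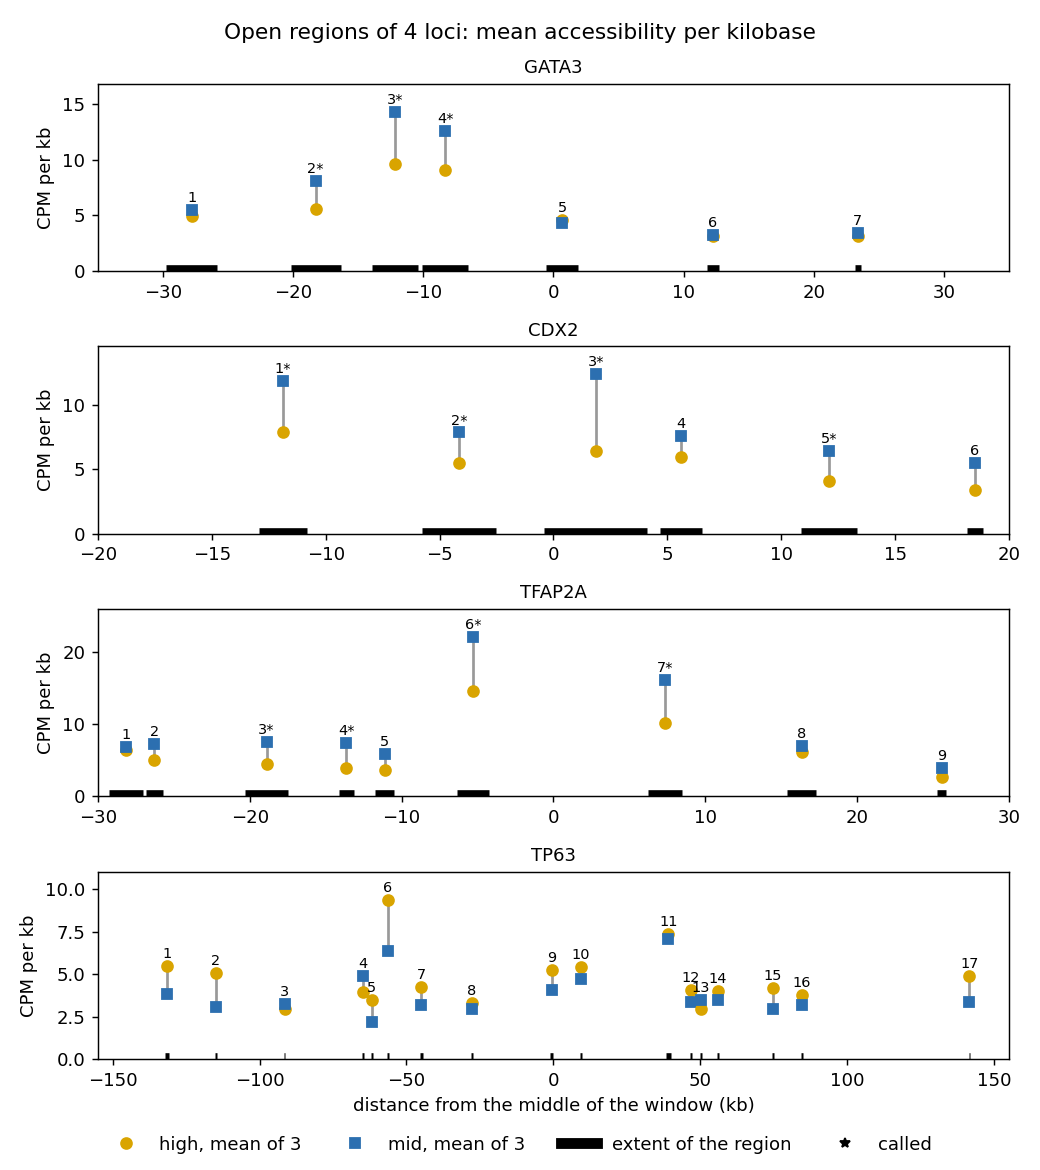
Mean CPM per kilobase of region width at GATA3, CDX2, TFAP2A and TP63 (vertical axis, gold circles, high population, blue squares, mid population, each a mean of 3 replicates) against distance from the middle of the window in kb, with black bars for the extent of each region. Asterisks mark called regions. Mid values exceed high values, called or not, in all GATA3 regions but region 5, all 6 of CDX2 and all 9 of TFAP2A. High values exceed mid values in 14 of the 17 TP63 regions.

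GATA2, the partner of GATA3 in trophoblast, had 2 regions. Region 1 (chr3:128214933-128217300) had 16.2, 16.3 and 14.4 CPM in high and 21.0, 22.4 and 20.9 CPM in mid. The groups were apart and each varied little, but the log2 fold change of -0.46 (SE 0.14) did not pass the threshold (adjusted p = 0.0243, edgeR). Without replicate pair 1 it did, at -0.52 (adjusted p = 0.00558, over all alternatives 0.00453 to 0.301). Region 2, with 22 to 67 reads per sample, was at -0.28 (SE 0.27), and the locus summed to 17.5, 18.8 and 16.3 CPM in high and 22.7, 25.3 and 23.1 CPM in mid.

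HAND1 had 1 called region of 4. HAND1 region 3 (chr5:153854785-153860352), at 5568 bp the widest member, had 51.6, 47.8 and 43.8 CPM in high and 79.9, 70.0 and 57.7 CPM in mid. In both populations replicate 1 was highest and replicate 3 lowest, and the log2 fold change was -0.53 (SE 0.12, adjusted p = 0.00161, edgeR). The call was lost with the loess offset on region width, where the value was -0.13 (adjusted p = 0.430, edgeR), and with that on mean log2 CPM, where it was -0.26 (adjusted p = 0.101, edgeR). Regions 1 and 2 were at 0.11 and 0.05 and region 4 was at -0.30, each with an adjusted p of at least 0.380 (edgeR). Region 3 held most of the reads of the locus, so the sum, 67.5 ± 3.20 CPM in high against 89.1 ± 12.1 in mid (SD, n = 3), followed it.

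ISL1 had 5 regions and no call with all 6 libraries. Its sums were 86.7, 79.7 and 72.3 CPM in high and 100.9, 100.5 and 84.5 CPM in mid, the 1 locus whose groups overlapped. All 5 regions were lower in the high population by fold change, from -0.48 to -0.21. ISL1 region 2 (chr5:50678220-50680056) had the highest level per length of any member in the high population, 15.3 CPM per kb, and differed by -0.25 (SE 0.13, adjusted p = 0.220, edgeR). Region 4 (chr5:50690405-50691889), with the smallest p, had 6.93 to 7.63 CPM in high and 13.2, 11.2 and 7.09 CPM in mid, so that mid replicate 3 fell among the high samples (log2 fold change -0.48, SE 0.18, adjusted p = 0.0615, edgeR). Region 2 was called without high replicate 1 (-0.44, adjusted p = 0.00954), and region 4 without high replicate 3 (-0.70, adjusted p = 0.00975, edgeR).

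KRT7, the 1 structural gene of the set, showed the smallest shift in summed CPM of the loci lower in high. In some fits with libraries left out ISL1 moved less, such as without pair 2 (-0.22 against -0.26 for KRT7). By the median of its regions KRT7 stood at -0.14, beside -0.14 for GATA3 and -0.12 for HAND1. KRT7 summed to 39.0, 42.0 and 45.5 CPM in high and 48.3, 46.1 and 52.4 CPM in mid, groups that nearly met but did not overlap. The 5 regions lay between -0.30 and -0.13, and none had its groups apart. KRT7 region 2 (chr12:52625974-52628631), with the most reads and the smallest p, was at -0.30 (SE 0.14, adjusted p = 0.148, edgeR). KRT7-AS overlaps the gene, and KRT80 and KRT86 are its neighbours in RefSeq.

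TP63 differed in the other direction. Its 17 regions summed to 72.6, 68.6 and 60.3 CPM in the high replicates and 57.4, 52.1 and 55.5 CPM in the mid replicates. The groups did not overlap, although high replicate 3 lay close to mid replicate 1, and the pairs differed by 0.34, 0.40 and 0.12 on the log2 scale. The median log2 fold change of the 17 regions was 0.28, and 3 of them, regions 3, 4 and 13, lay below 0. All regions below the top width decile had a median of 0.06, with 43.5% below 0. The width decile of 631 to 697 bp, which holds the TP63 median of 688 bp, had a median of 0.135. No TP63 region was called at an adjusted p under 0.01. At an unadjusted p under 0.05 (edgeR), 4 were higher in high, against 14.2% of all regions.

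TP63 region 2 (chr3:189369700-189370433) had the highest fold change of all members. It had 3.42, 4.37 and 3.33 CPM in high and 1.77, 1.95 and 2.99 CPM in mid. The pairs moved by 0.96, 1.16 and 0.16, and the log2 fold change of 0.73 (SE 0.24) had an adjusted p of 0.0320 (edgeR). It was called once pair 3 was left out (1.06, adjusted p = 0.00764, over the alternatives that gave an adjusted p 0.00657 to 0.411). Region 6 (chr3:189428221-189429121) had 12.6, 7.01 and 5.74 CPM in high and 9.28, 3.90 and 3.99 CPM in mid. There replicate 1 was the highest sample of both populations, and each pair moved towards high (log2 fold change 0.59, SE 0.18, adjusted p = 0.0234, edgeR), so the groups overlapped while the pairs agreed in sign.

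TP63 region 1 (chr3:189352937-189354253) was at 0.51 (SE 0.18, adjusted p = 0.0573, edgeR), with 6.95 to 7.70 CPM in high and 4.81 to 5.52 CPM in mid. Region 5 (chr3:189422957-189423505), a narrow region with 23 to 45 reads per sample, was at 0.68 (SE 0.31, adjusted p = 0.142, edgeR). Region 11 (chr3:189523312-189524901), with the most reads of the locus, had 11.7 ± 0.983 CPM in high and 11.2 ± 2.93 in mid (SD, n = 3) and a log2 fold change of 0.08 (SE 0.16, adjusted p = 0.795, edgeR), which became -0.08 without pair 1. In region 13 mid replicate 1, at 3.49 CPM, stood above the other samples, at 0.652 to 1.77 CPM, and the pairs moved by -0.98, 0.14 and 0.99.

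**Figure D3:**
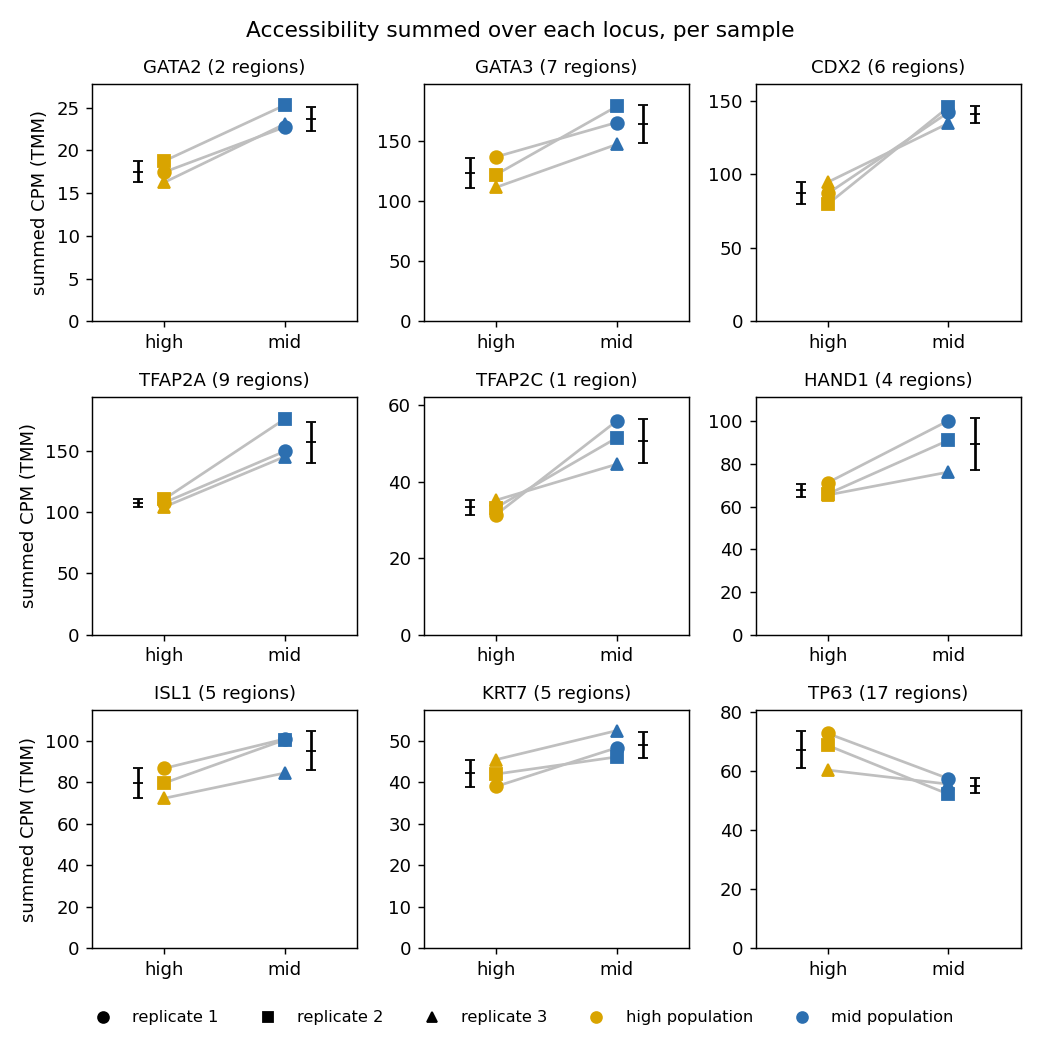
Summed CPM of the regions of each locus (vertical axis, starting at 0) in each of the 3 high and 3 mid samples, with grey lines joining same-numbered replicates and black bars for mean ± SD. All 3 lines climb from high to mid at 8 loci and all 3 descend at TP63, where the means are 67.2 and 55.0 CPM.

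Reads of the other 8 loci were also set against the reads of TP63 in the same library. TP63 was taken as the denominator because it differed in the other direction, which pushes the ratios apart, so they are a description of the contrast between TP63 and the rest and support no difference at any single locus. CDX2 held 1.20, 1.16 and 1.57 times the reads of the TP63 regions in the high replicates and 2.48, 2.80 and 2.43 times in the mid replicates. For GATA3 the ratio was 1.84 ± 0.0522 in high and 2.98 ± 0.399 in mid, and for TFAP2A it was 1.61 ± 0.123 and 2.87 ± 0.440 (SD, n = 3). KRT7 had the closest groups, at 0.536 to 0.754 in high and 0.842 to 0.945 in mid. ISL1, whose CPM overlapped, had ratios of 1.16 to 1.20 in high and 1.52 to 1.93 in mid. The ratios do not say which locus moved.

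**Figure D4:**
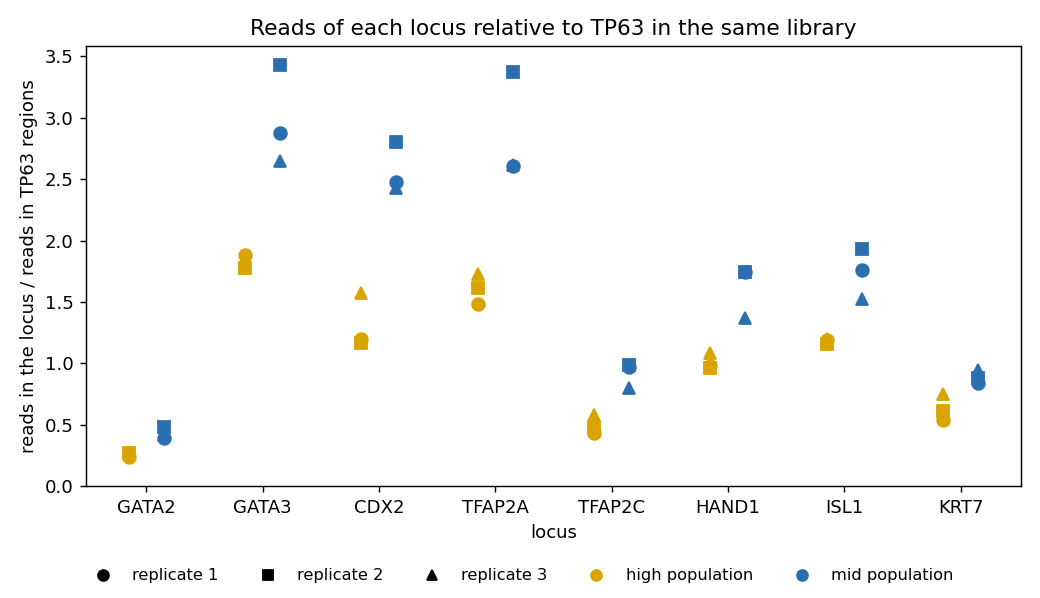
Reads in the regions of each locus divided by the reads in the 17 TP63 regions of the same library (vertical axis), for 3 high (gold) and 3 mid (blue) libraries. Mid values lie above high values at every locus shown, with means of 1.31 and 2.57 for CDX2.

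Width moved with these differences. The members were wider than most regions, with a median of 1307 bp against 879 bp, and the TP63 regions were narrow, with a median of 688 bp against 2089 bp for the other 8 loci. Over the whole table the median log2 fold change was -0.23 in the top width decile, and 22.4% of that decile were called towards mid against 1.71% of the other regions. Towards high, 1.71% of that decile were called, against 2.32% of all regions. Of the members, 17 were in the top width decile and 10 of these were called, with a median of -0.51 against -0.23 for all regions of that class. Of the 39 narrower members 3 were called, and the 22 of these outside TP63 had a median of -0.26 against 0.06 for all narrower regions. Across the 56 members, log2 width and log2 fold change had a Pearson's r of -0.54, a description over regions that share 6 libraries and lie in 9 clusters (r = -0.23 over all regions).

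Fitting the trend with width out of the counts left a smaller difference of the same sign. With loess offsets on region width, 5 members were called towards mid, 4 at TFAP2A and the CDX2 region 3, where 2.38% of all regions and 8.46% of the top width decile were called. The median was then -0.24 for the 8 loci and 0.18 for TP63. With loess offsets on average log2 CPM, 6 members were called, 3 at CDX2 and 3 at TFAP2A, where 2.62% of all regions and 10.7% of the top width decile were called. No region of GATA3, TFAP2C or HAND1 was called under either: with the width offset the regions called there without an offset lay between -0.31 and -0.13, and with the mean CPM offset between -0.37 and -0.26. The part of width in the differences at these 3 loci was not tested further.

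**Figure D5:**
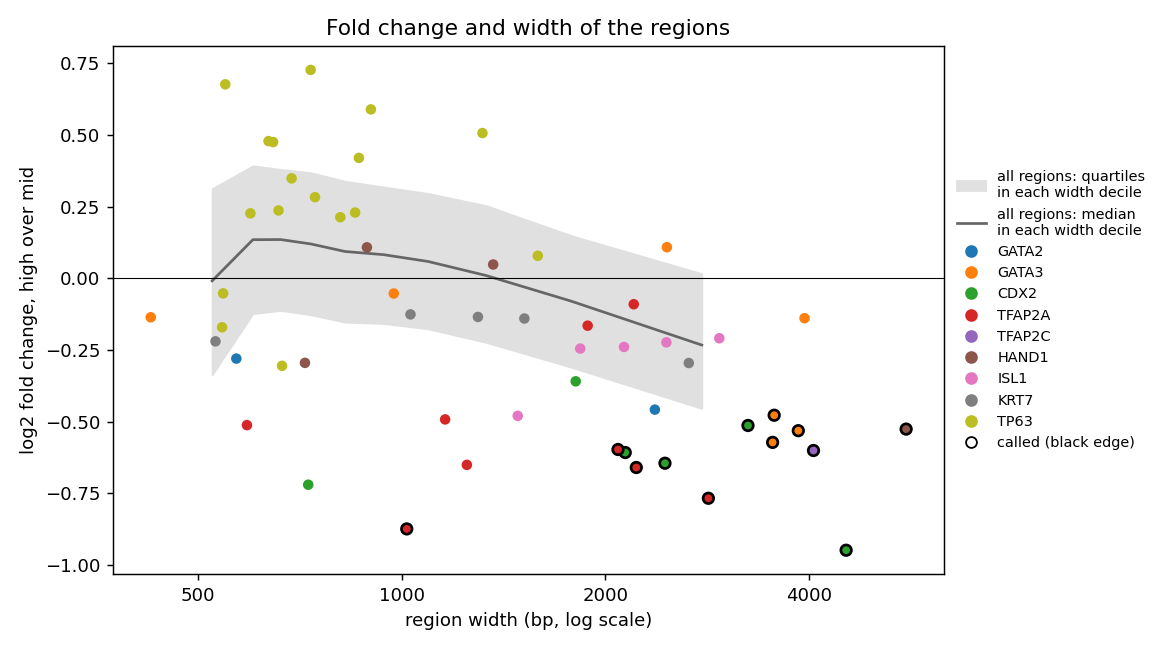
Log2 fold change of high over mid (vertical axis) against region width in bp (log scale) for the 56 members, coloured by locus, with called regions edged in black and, in grey, the median and quartiles of all regions in each width decile. The called members, 1018 to 5568 bp wide, all lie below the lower quartile of their width decile, and the TP63 regions are all 1590 bp or narrower, 14 of the 17 above the median of their decile.

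Regions outside the windows, within 200 kb on either side, gave each locus a local background. Of 213 such regions 9 were called towards mid (4.23%) and 2 towards high. Around GATA3 the 14 flanking regions had a median log2 fold change of 0.19 and 0 called towards mid, beside -0.14 and 3 of 7 inside the window. The 25 regions around TFAP2A had a median of -0.02 with 0 called towards mid, beside -0.60 and 4 of 9. Around HAND1 the median was 0.09 over 27 regions, and around ISL1 it was 0.25 over 11 regions, where the 2 calls towards high lay. The surroundings of CDX2 shifted as the locus did, with 5 of 20 flanking regions called towards mid and a median of -0.31. Flanks of TFAP2C (17 regions, 2 called) and KRT7 (43 regions, 1 called) also lay below 0, at -0.25 and -0.27, the latter further from 0 than KRT7 itself at -0.14. The 23 regions around TP63 had a median of 0.075, beside 0.28 for its own. The 33 around GATA2 were at -0.09, beside -0.37. These flanking regions are of narrower median width, 911 bp, than the members, and were not matched for width. Around GATA3 the flanks had a median of 703.5 bp with 0 of 14 in the top width decile. Inside that window the median was 3535 bp, with 5 of 7 in the top width decile.

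Per kilobase, the loci differed less in the high than in the mid population. Levels in high ran from 5.03 CPM per kb at TP63 to 8.23 at TFAP2C, and in mid from 4.12 at TP63 to 12.5 at TFAP2C. The order in mid was TFAP2C, HAND1 (10.43), TFAP2A (10.3), CDX2 (9.45), ISL1 (8.77), GATA3 (8.72), GATA2 (8.06), KRT7 (6.96) and TP63. The median over all regions was 4.43 CPM per kb. From HAND1 to GATA2, each locus differed from the next by less than the larger of their SDs over the 3 mid replicates. TP63 was the lowest in both populations. Open regions covered 37.3% of the CDX2 window, 26.8% of GATA3, 25.4% of TFAP2A, 21.7% of ISL1, 17.1% of HAND1 and 14.1% of KRT7, and less of the TFAP2C (6.75%), GATA2 (5.88%) and TP63 (4.31%) windows, whose lengths differ.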

How the data were processed

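FAST-ATAC was done on 3 high and 3 mid samples. The deposited values are raw read counts per region. Per the labels and methods, the authors used Trimmomatic, BWA 0.7.15 (hg19) and MACS (1.4.2 in the submitters' processing notes), removed duplicates, shifted reads to the Tn5 cut, called regions on alignments pooled over replicates, merged both populations and counted. Pooled calling hides which regions each replicate would give, and a wide merged region gathers more reads. What the read number adds to the calls of wide regions was not tested. Starts are printed 1 above the deposited column, read as counting from 0.

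All 118556 regions, unfiltered, entered the quasi-likelihood test of edgeR 4.0.16 in R 4.3.3, with TMM, replicate number as a block, Benjamini-Hochberg adjustment over all regions and calls under 0.01. It was also run on simulated counts that held a group effect but no replicate effect or width trend. That run does not check the block. SE is the log2 fold change over the root of F. The study fitted batch as a covariate without stating its coding, and the sample names give only a number. Pairing by number is therefore an assumption. Same-numbered samples deviated together (r across regions 0.19 to 0.30, other numbers -0.26 to 0.06). DESeq2 1.42.0 and limma 3.58.1 (loess, span 0.3) served alternatives. The smallest member count in a sample was 17, and all 56 members passed a filter of CPM above 1 in 3 samples.

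Members and lists were chosen with earlier results of these data known. Named were all called regions, the regions with most reads and smallest p of each locus, and the 3 largest fold changes in each direction. Gene lists that needed an hg19 annotation were not used here. Promoters and neighbours are from RefSeq GRCh38.p14, and no position was carried between builds.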

Additional observations from a re-analysis of the deposited data

How the results depend on the processing

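Against 13 member regions called towards mid, no replicate block gave 1, a loess offset on mean log2 CPM 6, a loess offset on region width 5 and total counts only 9, where GATA3 regions 2 and 4 and CDX2 regions 2 and 5 were lost (adjusted p = 0.0131, 0.0211, 0.0244 and 0.0122). Of all regions, 1.11%, 2.62%, 2.38% and 2.68% were called towards mid in these fits, in that order, against 3.77% in the main fit. Leaving out a same-numbered pair or a single library gave 1 to 15, the lowest without pair 2 or either of its libraries, which in a blocked fit are nearly the same fit. Over all regions, the fits with a pair or a library left out called 0.364% to 4.64% towards mid. The fit without pair 2 made 438 calls towards mid over all regions, against 4472. Against 0 called towards high, total counts only gave 1, an adjusted p under 0.05 gave 2, and leaving out pair 3 or either of its libraries gave 1 (range 0 to 1), all at TP63. The cause was not tested. The median log2 fold change of the members, -0.215, was -0.124 with total counts only, which moved the median of all regions from 0.033 to 0.124, -0.240 with upper quartile scaling, -0.171 with the loess offset on mean log2 CPM and -0.128 with that on width. It ran from -0.236 to -0.202 with a pair or a library left out. TP63 region 11 changed sign without pair 1 or either of its libraries (-0.084, -0.087 and -0.062, range over all such fits -0.087 to 0.225). DESeq2 gave TP63 region 2 no adjusted p. Of the other values of named regions and locus sums, 0 changed sign, but locus sums were not computed with the loess offsets. Members that were not named did change sign. With the loess offset on width, the regions below 0 numbered 4 at GATA3, 8 at TFAP2A and 4 at ISL1, against 6, 9 and 5. At the other loci these numbers did not change with that offset. The 2-level batch, DESeq2, the likelihood ratio test, RLE, the filter on CPM and membership by any overlap kept 12 or 13 calls towards mid.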
